A study of Sus scrofa with 12 samples.

Results

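TGF-beta and BMP pathway genes were followed in pig oviduct epithelium through 3′ mRNA sequencing of 12 libraries. The set was taken by gene symbol, from the ligands, latency proteins, receptors, SMADs, antagonists and ID genes of the pathway, and held 60 of the 13259 rows of the table that carried a symbol. It was chosen with earlier results of these data known. Enough reads to be tested were found for 42 of the 60, and the other 18 are described by their counts at the end. The 12 libraries form 3 groups of 4. Fresh cells were scraped from the oviduct and collected as single cells. Spheroids, which are cells that have gathered into 3-dimensional clusters in culture, were formed either in DMEM/F12, a common basal culture medium, or in a medium named only as Incubation Medium. The library names carry FBS for the former and Diff for the latter, and neither is explained in the labels. All groups are labelled as epithelial cells of the pig oviduct. Strain, age, sex, cycle stage, time in culture and the number of animals are not given, so p-values measure the spread between libraries, which may in part be technical.

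Ligands of this family are secreted as dimers, and TGF-beta itself is held in a latent complex with LTBP proteins until it is released. A ligand brings together type II and type I receptors, which are serine/threonine kinases, and the type I receptor then phosphorylates receptor SMADs. SMAD2 and SMAD3 carry the signal of TGF-beta and activins, SMAD1, SMAD5 and SMAD9 carry that of BMPs, and each joins SMAD4 to act on genes in the nucleus. ID genes are well-known targets of BMP signals, while SMAD6, SMAD7, SMURF1, SMURF2, SKIL and BAMBI restrain the pathway, several of them as feedback from it. In epithelia the pathway is known for its part in growth arrest, differentiation and matrix production.

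Library totals ranged from 5045218 to 8603809 counts. Levels are given as CPM, counts scaled to a common library size after TMM normalization, which corrects for differences in composition. They are not scaled by gene length, and differences were tested only within a gene. Differences are log2 fold changes with a standard error (SE) from edgeR's quasi-likelihood test, called at an adjusted p under 0.05 over all 14070 genes tested. Markers of several cell types moved between the groups. The 7 stromal markers found of 10 summed to 1432 to 1943 CPM in fresh cells, 67.0 to 165 in spheroids of DMEM/F12 and 27.1 to 30.4 in those of incubation medium, most of it in fresh cells from MGP. Of these 7 markers 2 were higher and 3 lower in DMEM/F12 spheroids than in fresh cells, and 2 higher and 5 lower in incubation medium spheroids. In the same order of groups, the 5 multiciliated cell markers found of 8 summed to 1021 to 1134, 114 to 289 and 105 to 203 CPM, with 5 of 5 lower in each medium. The 4 secretory cell markers found of 6 summed to 19232 to 30254, 1018 to 2049.8 and 1049 to 2074 CPM, most of it in fresh cells from OVGP1. MUC1 was called higher and OVGP1, SLPI and LTF lower in each medium against fresh cells. The 6 epithelial markers found of 8 summed to 4063 to 4742, 6557 to 8159 and 4717 to 6699.8 CPM. Against fresh cells EPCAM was called lower in DMEM/F12 and CLDN4 lower in incubation medium, and the other calls of epithelial markers were higher. The 5 smooth muscle markers found of 6 summed to 256 to 376, 1061 to 1211 and 243 to 552 CPM, mostly from TAGLN, with DES at 0 or 1 count in every library. Of these 5, TAGLN was called higher and MYLK and CNN1 lower in each medium against fresh cells. All 6 endothelial markers were found and summed to 41.9 to 57.6, 137 to 253 and 92.6 to 149 CPM, with VWF at 0 in the fresh cells and the DMEM/F12 spheroids. KDR and CDH5 were called higher and PECAM1 lower in each medium against fresh cells, and ESAM higher in incubation medium. TEK, which was not tested, averaged 1.51, 0.452 and 0.511 CPM. The 4 leukocyte markers found of 7 summed to 13.1 to 17.9, 16.1 to 27.5 and 6.31 to 13.1 CPM, and the 2 mesothelial markers found of 5 to 274 to 333, 283 to 435 and 198 to 264 CPM. Against fresh cells PTPRC and WT1 were called lower in each medium, and CORO1A and UPK1B higher in DMEM/F12. The 6 proliferation genes found of 7 summed to 20.6 to 32.9, 231 to 269 and 282 to 407 CPM. The part of these shifts in the results below was not tested, and in bulk RNA fewer cells of a type and less RNA per cell cannot be told apart.

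The 60 genes took 0.213 to 0.228% of the counts of the fresh cell libraries, 0.243 to 0.259% in spheroids of DMEM/F12 and 0.162 to 0.184% in those of incubation medium, and these ranges did not overlap. Against fresh cells, 33 of the 42 tested genes were called in DMEM/F12 spheroids, 15 higher and 18 lower. Of all genes tested 70.7% were called in that comparison, 35.1% higher and 35.7% lower, so the share of pathway genes (78.6%) lay close to that of the whole table. In incubation medium spheroids 35 of 42 were called (83.3%), 12 higher and 23 lower, against 71.7% of all genes, 35.8% in each direction. Called changes of at least 2-fold were found for 18 of 42 (42.9%) in DMEM/F12, 8 higher and 10 lower, where 35.4% of all genes had one, 15.1% higher and 20.3% lower. In incubation medium 21 of 42 (50%) had one, 7 higher and 14 lower, beside 36.8% of all genes, 15.3% higher and 21.5% lower. The median log2 fold change of the tested pathway genes was -0.01 in DMEM/F12 and -0.42 in incubation medium, beside -0.01 for all genes in each. The fresh cell libraries are shared by these comparisons. Higher and lower calls occurred side by side among the TGF-beta ligands, the BMP and GDF ligands, the type I and type II receptors, the SMADs and the ID genes in each medium, as the plot of changes by class shows.

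**Figure D1:**
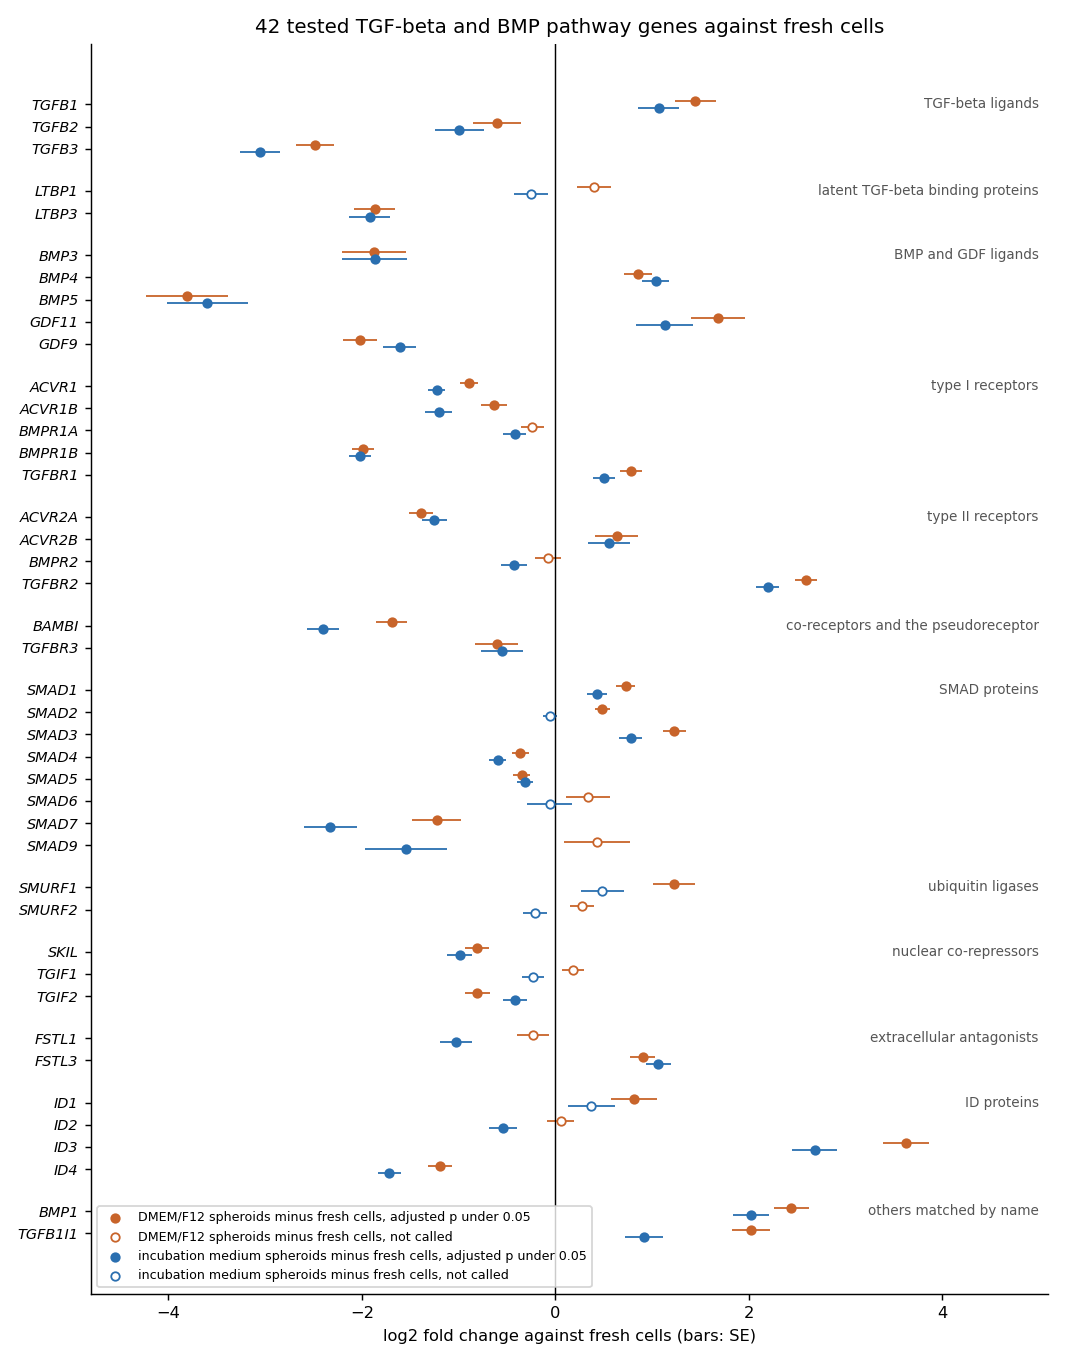
Log2 fold change of the 42 tested TGF-beta and BMP pathway genes in spheroids against fresh cells, grouped by role (x axis, log2 units; points are estimates from 4 libraries per group, bars are SE). Filled points passed an adjusted p of 0.05; ID3, TGFBR2 and BMP1 lie farthest to the right and BMP5 and TGFB3 farthest to the left.

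The 3 TGF-beta ligands moved apart. TGFB1 (ENSSSCG00025019487), the most widely expressed of the ligands, stood at 6.44, 7.35, 5.98 and 7.25 CPM in fresh cell replicates 1 to 4. It was at 17.8, 21.3, 18.9 and 15.97 CPM in spheroids of DMEM/F12 and 11.9, 12.8, 10.7 and 21.5 in those of incubation medium. Every spheroid library lay above every fresh cell library, with a log2 fold change of 1.45, SE 0.21, adjusted p = 2.26e-05 in DMEM/F12 and 1.07, SE 0.21, adjusted p = 0.000392 in incubation medium. TGFB3 (ENSSSCG00025073263), an isoform known from tissue fusion and mesenchyme, went the other way. Its level was 18.4, 28.0, 25.2 and 32.3 CPM in fresh cells, 4.14, 5.11, 3.97 and 5.28 in spheroids of DMEM/F12 and 2.62, 4.00, 3.45 and 2.42 in those of incubation medium. The highest spheroid library was far below the lowest fresh one, with log2 fold changes of -2.48, SE 0.20, adjusted p = 5.93e-08, and -3.05, SE 0.21, adjusted p = 1.36e-08. TGFB2 (ENSSSCG00025014174) was lower as well, at 19.3, 29.6, 18.1 and 25.1 CPM in fresh cells, 16.4, 15.9, 11.5 and 16.7 in spheroids of DMEM/F12 and 16.3, 13.5, 5.91 and 10.48 in those of incubation medium. Its log2 fold change was -0.99, adjusted p = 0.00266, in incubation medium and -0.60, adjusted p = 0.0403, in DMEM/F12. The DMEM/F12 call for TGFB2 was lost with library totals (adjusted p = 0.0748), without the filter on low counts (0.0544), and without any single library of the comparison other than fresh cell replicates 1 and 3 (log2 fold change -0.64 to -0.45, adjusted p 0.055 to 0.139).

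LTBP3 (ENSSSCG00025076179), which binds latent TGF-beta and aids its secretion, fell in spheroids of both media. It was at 98.2, 102, 102 and 129.7 CPM in fresh cells, 35.2, 23.5, 22.9 and 36.7 in spheroids of DMEM/F12 and 29.1, 23.8, 19.7 and 41.9 in those of incubation medium. The log2 fold changes were -1.87, SE 0.21, adjusted p = 2.17e-06, and -1.92, SE 0.21, adjusted p = 1.69e-06, with no overlap with fresh cells. LTBP1, the other latency protein measured, averaged 58.7 ± 10.6 CPM (SD, n = 4) in fresh cells, 77.6 ± 10.7 in spheroids of DMEM/F12 and 49.4 ± 13.9 in those of incubation medium. It was not called against fresh cells in DMEM/F12 (log2 fold change 0.40, adjusted p = 0.0518; called with the replicate block, 0.40, adjusted p = 0.00758). It was also called there without fresh cell replicate 3 (0.51, adjusted p = 0.0258), without DMEM/F12 replicate 2 (0.50, adjusted p = 0.0264), with library totals, without the filter, with DESeq2 and with only the groups compared (adjusted p 0.0144 to 0.0399). In incubation medium its log2 fold change was -0.25, adjusted p = 0.222, and replicate 4 of that medium stood at 70.3 CPM where the others held 41.0 to 43.9. Without that library LTBP1 was called lower (-0.45, adjusted p = 0.0127).

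Of the 13 BMP and GDF ligands 5 were tested and each was called in both media against fresh cells, 2 higher and 3 lower in each. BMP4 (ENSSSCG00025066565), a ligand with broad roles in epithelial and mesenchymal development, rose. Fresh cells held 29.8, 36.0, 25.1 and 27.4 CPM, DMEM/F12 spheroids 44.0, 55.6, 60.2 and 54.5 and incubation medium spheroids 53.0, 68.9, 69.7 and 51.9. Groups did not overlap with fresh cells, and the log2 fold changes were 0.86, SE 0.14, adjusted p = 7.97e-05, and 1.04, SE 0.14, adjusted p = 1.23e-05. BMP5 (ENSSSCG00025062664) had the largest fall among the tested pathway genes. Its level was 10.1, 11.3, 22.4 and 22.1 CPM in fresh cells, with replicates 3 and 4 well above replicates 1 and 2 and all 4 above every spheroid library. It was 1.216, 0.813, 0.529 and 2.04 CPM in spheroids of DMEM/F12 and 0.358, 2.00, 1.60 and 1.48 in those of incubation medium, with log2 fold changes of -3.81, SE 0.43, adjusted p = 1.99e-06, and -3.60, SE 0.42, adjusted p = 2.93e-06. GDF9 (ENSSSCG00025053352), a ligand best known from the oocyte, was at 25.4, 24.4, 26.9 and 24.9 CPM in fresh cells and fell to 7.54, 6.50, 3.84 and 6.96 in spheroids of DMEM/F12 and 7.87, 7.47, 7.63 and 10.3 in those of incubation medium. Its log2 fold changes were -2.02, SE 0.18, adjusted p = 1.46e-07, and -1.61, SE 0.17, adjusted p = 1.11e-06. At levels under 5 CPM, BMP3 went from 3.19 to 0.851 and 0.856 CPM (log2 fold change -1.87 in each medium, adjusted p = 0.000144 and 0.000154). GDF11, a relative of myostatin, went from 1.23 to 4.02 and 2.73 CPM (log2 fold change 1.68, adjusted p = 9.95e-05, and 1.13, adjusted p = 0.00323).

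**Figure D2:**
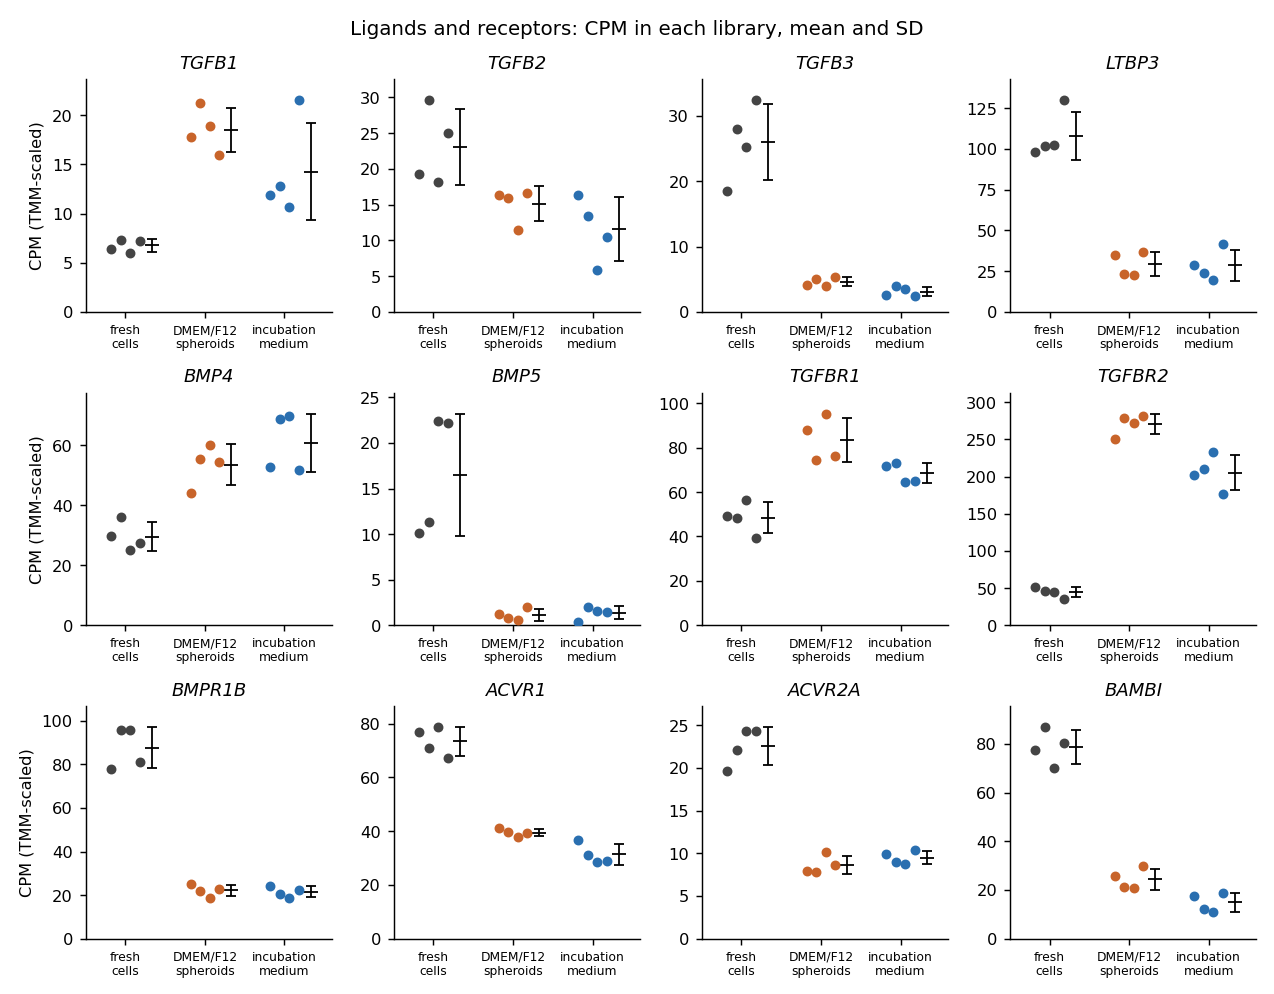
CPM (y axis, linear from 0) of 12 ligands, latency proteins and receptors in each of the 12 libraries (points, replicates 1 to 4 from left to right), with the mean and SD of 4 libraries beside them. TGFBR2 rises from 35.5 to 52.0 CPM in fresh cells to between 177 and 282 CPM in the spheroid libraries, while TGFB3, BMPR1B and BAMBI lie lower in every spheroid library.

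The TGF-beta receptors TGFBR1 and TGFBR2 were higher in spheroids, and most activin and BMP receptors were lower or did not pass the test. TGFBR2 (ENSSSCG00025024102), the type II receptor that binds TGF-beta, had the smallest adjusted p of the tested pathway genes in each medium against fresh cells. Fresh cells held 52.0, 46.3, 45.4 and 35.5 CPM, DMEM/F12 spheroids 251, 278, 272 and 282 and incubation medium spheroids 202, 210.4, 233 and 177. Its level was 6.04-fold higher in DMEM/F12 (log2 fold change 2.59, SE 0.12, adjusted p = 3.26e-10) and 4.58-fold higher in incubation medium (log2 fold change 2.20, SE 0.12, adjusted p = 1.36e-09). TGFBR1 (ENSSSCG00025075618), its type I partner, was at 49.3, 48.2, 56.5 and 39.4 CPM in fresh cells, 87.8, 74.5, 95.3 and 76.1 in spheroids of DMEM/F12 and 71.7, 73.3, 64.5 and 64.9 in those of incubation medium. This was a smaller rise, of 0.79, SE 0.11, adjusted p = 2.1e-05 and 0.50, SE 0.11, adjusted p = 0.00104 on the log2 scale, with no overlap with fresh cells. TGFBR3, or betaglycan, a co-receptor that presents ligand, was lower at a mean of 11.7 CPM in fresh cells, 7.67 in spheroids of DMEM/F12 and 7.996 in those of incubation medium. Its libraries overlapped, and the calls (log2 fold change -0.61, adjusted p = 0.0221, and -0.55, adjusted p = 0.0348) were not stable. The DMEM/F12 call was lost without fresh cell replicate 2 or 3 or DMEM/F12 replicate 1 (adjusted p 0.0685 to 0.0735). The incubation medium call was lost without the filter (0.0612) and without fresh cell replicate 2, 3 or 4 or incubation medium replicate 1, 2 or 3 (0.0543 to 0.111). For TGFBR3 58.3% of libraries held a fraction of a count, so its level is uncertain where the authors' counting split reads. The same limit holds for BMPR1A and SMURF1, described below, with 50% of libraries each.

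BMPR1B (ENSSSCG00025006714), a type I receptor for BMPs and GDFs, fell most among the signalling receptors. It was at 78.0, 95.9, 95.7 and 81.3 CPM in fresh cells, 25.2, 21.95, 18.8 and 22.6 in spheroids of DMEM/F12 and 24.3, 20.7, 18.8 and 22.4 in those of incubation medium. The fall was about equal in the media, at log2 fold changes of -1.99, SE 0.11, adjusted p = 2.8e-09, and -2.02, SE 0.11, adjusted p = 2.41e-09. BMPR1A, its close relative, changed less, at 51.7 ± 8.27 CPM (SD, n = 4) in fresh cells, 43.9 ± 5.22 in spheroids of DMEM/F12 and 38.7 ± 2.41 in those of incubation medium. BMPR1A was called lower in incubation medium (log2 fold change -0.42, adjusted p = 0.00597) and not in DMEM/F12 (-0.24, adjusted p = 0.0869; -0.34, adjusted p = 0.0126, without fresh cell replicate 1). ACVR1 (ENSSSCG00025028203), a type I receptor for BMPs and activins, held 76.8, 70.8, 78.7 and 67.0 CPM in fresh cells, 41.1, 39.6, 37.8 and 39.1 in spheroids of DMEM/F12 and 36.6, 31.1, 28.4 and 29.0 in those of incubation medium. Its log2 fold changes were -0.90, SE 0.09, adjusted p = 7.15e-07, and -1.23, SE 0.09, adjusted p = 3.54e-08. ACVR1B (ENSSSCG00025013508), the main activin type I receptor, was at 28.5, 35.3, 30.1 and 34.7 CPM, then 22.5, 18.6, 19.1 and 22.8 and 16.1, 11.9, 11.3 and 16.4 in the same order. The 3 groups of ACVR1B did not overlap, and its log2 fold changes against fresh cells were -0.63, SE 0.14, adjusted p = 0.000759, and -1.21, SE 0.14, adjusted p = 2.59e-06.

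Among type II receptors other than TGFBR2, ACVR2A (ENSSSCG00025057778), an activin receptor, fell from 19.7, 22.1, 24.3 and 24.3 CPM in fresh cells to 7.91, 7.78, 10.2 and 8.64 in spheroids of DMEM/F12 and 9.90, 8.94, 8.74 and 10.3 in those of incubation medium. Its log2 fold changes were -1.39, SE 0.13, adjusted p = 2.52e-07, and -1.25, SE 0.13, adjusted p = 6.67e-07, again with no overlap. Its paralogue ACVR2B was higher, at 3.66 to 5.096 CPM in fresh cells, 4.62 to 9.26 in spheroids of DMEM/F12 and 5.05 to 6.99 in those of incubation medium (log2 fold change 0.63, adjusted p = 0.019, and 0.56, adjusted p = 0.0362), with overlapping libraries. The ACVR2B calls were weak. In DMEM/F12 the call was lost without fresh cell replicate 1 (adjusted p = 0.0556) or DMEM/F12 replicate 3 (0.0619). In incubation medium it was lost with DESeq2 (adjusted p = 0.0507) and without fresh cell replicate 1, 2 or 3 or incubation medium replicate 1, 2 or 4 (0.0594 to 0.0945). BMPR2, the type II receptor dedicated to BMPs, averaged 25.1 CPM in fresh cells, 23.8 in spheroids of DMEM/F12 and 18.6 in those of incubation medium, and was called in incubation medium alone (log2 fold change -0.43, adjusted p = 0.00998; -0.08, adjusted p = 0.623, in DMEM/F12). BAMBI (ENSSSCG00025050717), a pseudoreceptor that lacks the kinase and blunts signalling, was among the genes that fell most. Fresh cells held 77.6, 87.0, 69.9 and 80.4 CPM, DMEM/F12 spheroids 25.9, 21.1, 20.8 and 29.7 and incubation medium spheroids 17.7, 12.3, 10.95 and 18.8. Its groups formed 3 separate levels, with log2 fold changes against fresh cells of -1.69, SE 0.16, adjusted p = 3.33e-07, and -2.40, SE 0.17, adjusted p = 1.7e-08.

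All 8 SMAD genes of the set were tested. SMAD3 (ENSSSCG00025032064), which binds DNA in response to TGF-beta and activin, rose most of them. Fresh cells held 39.3, 36.8, 32.2 and 33.9 CPM, DMEM/F12 spheroids 89.4, 90.02, 65.4 and 89.0 and incubation medium spheroids 58.7, 70.6, 58.6 and 56.6. DMEM/F12 replicate 3 stood below the other libraries of that group and still above all fresh cells, and the log2 fold changes were 1.23, SE 0.12, adjusted p = 3.84e-07, and 0.78, SE 0.12, adjusted p = 3.5e-05. SMAD2, its partner in the same branch, averaged 58.4 ± 3.56 CPM (SD, n = 4) in fresh cells, 81.9 ± 3.42 in spheroids of DMEM/F12 and 56.3 ± 3.03 in those of incubation medium. SMAD2 was called higher in DMEM/F12 (log2 fold change 0.49, adjusted p = 3.73e-05) and was not called in incubation medium (-0.05, adjusted p = 0.54). Of the BMP SMADs, SMAD1 was called higher in both media (log2 fold change 0.73, adjusted p = 1.24e-05, and 0.43, adjusted p = 0.00134) and SMAD5 lower (-0.35, adjusted p = 0.00205, and -0.31, adjusted p = 0.00435). SMAD9 was low throughout, at 1.218, 1.61, 1.87 and 0.588 CPM in fresh cells, 1.95, 1.74, 1.85 and 1.68 in spheroids of DMEM/F12 and 0.597, 0.534, 0.492 and 0.134 in those of incubation medium. It was called lower in incubation medium (log2 fold change -1.54, adjusted p = 0.00449), where fresh cell replicate 4 lay within the range of the spheroids, and was not called in DMEM/F12 (0.44, adjusted p = 0.266). SMAD4, the common partner, was slightly lower in both media (log2 fold change -0.36, adjusted p = 0.00181, and -0.59, adjusted p = 2.56e-05), and 50% of libraries held a fraction of a count for it.

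The inhibitory SMADs differed from each other. SMAD7 (ENSSSCG00025004341), which blocks type I receptors and is itself switched on by the pathway, fell to its lowest level in incubation medium. It was at 13.4, 14.5, 12.2 and 9.02 CPM in fresh cells, 8.15, 4.07, 5.29 and 3.48 in spheroids of DMEM/F12 and 2.98, 2.40, 2.58 and 1.75 in those of incubation medium. The groups formed 3 separate levels, although the lowest fresh cell library (replicate 4) was close to DMEM/F12 replicate 1, and the log2 fold changes were -1.23, SE 0.25, adjusted p = 0.000498, and -2.33, SE 0.27, adjusted p = 2.96e-06. SMAD6, which acts mainly on the BMP branch, ranged from 5.88 to 8.88 CPM in fresh cells, 6.48 to 10.98 in spheroids of DMEM/F12 and 4.57 to 8.74 in those of incubation medium. It was the only tested pathway gene called in none of the 3 comparisons (adjusted p = 0.197, 0.836 and 0.215). SMURF1 (ENSSSCG00025045994), a ubiquitin ligase that marks receptors and BMP SMADs for breakdown, was at 15.3, 15.4, 13.5 and 12.9 CPM in fresh cells, 23.4, 37.5, 49.4 and 24.3 in spheroids of DMEM/F12 and 16.7, 23.0, 22.4 and 18.1 in those of incubation medium. It rose in DMEM/F12 (log2 fold change 1.23, SE 0.22, adjusted p = 0.000164), where replicates 2 and 3 were well above replicates 1 and 4. In incubation medium it was not called (0.49, adjusted p = 0.0654), although its libraries did not overlap with fresh cells. With the replicate block it was called there (0.47, adjusted p = 0.0192), as it was without replicate 1 of incubation medium (0.58, adjusted p = 0.044), without the filter (0.0297) and with only the groups compared (0.00889). SMURF2 averaged 50.2, 60.9 and 43.4 CPM and was not called against fresh cells (log2 fold change 0.28, adjusted p = 0.0588, and -0.21, adjusted p = 0.143). The call in DMEM/F12 appeared with the replicate block (0.26, adjusted p = 0.0441), without DMEM/F12 replicate 1, 2 or 4 (0.33 to 0.36, adjusted p 0.0235 to 0.0422), with library totals (0.0132) and without the filter (0.0209), and that in incubation medium with only the groups compared (-0.22, adjusted p = 0.0296). DMEM/F12 replicate 3, at 81.6 CPM, stood above the others of its group, at 52.5 to 55.7.

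The nuclear co-repressors were lower or did not pass the test. SKIL, or SnoN, which holds SMAD complexes inactive and is an early target of TGF-beta, was at 46.3, 41.97, 35.9 and 35.3 CPM in fresh cells. It was at 24.1, 20.4, 23.3 and 23.3 CPM in spheroids of DMEM/F12 and 21.95, 20.02, 15.8 and 22.7 in those of incubation medium, below every fresh cell library (log2 fold change -0.81, adjusted p = 4.23e-05, and -0.99, adjusted p = 6.67e-06). TGIF2 was lower too, at means of 34.3, 19.6 and 25.6 CPM (log2 fold change -0.80, adjusted p = 5.25e-05, and -0.42, adjusted p = 0.00757). TGIF1 was not called (0.18, adjusted p = 0.15, and -0.23, adjusted p = 0.0745), and 58.3% of libraries held a fraction of a count for it. TGIF1 was called higher in DMEM/F12 without fresh cell replicate 1 (0.31, adjusted p = 0.0087) or with library totals (0.0246), and lower in incubation medium without fresh cell replicate 4 (-0.30, adjusted p = 0.0257), with library totals (0.0348) or with a mean of at least 10 counts (0.0445).

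Only 2 of the 6 secreted antagonists had enough reads to be tested. FSTL3 (ENSSSCG00025008260), which binds and neutralises activins, rose from 10.6, 13.6, 11.4 and 13.1 CPM in fresh cells to 24.8, 19.2, 22.9 and 24.4 in spheroids of DMEM/F12 and 22.9, 26.6, 29.3 and 23.1 in those of incubation medium. Its log2 fold changes were 0.90, SE 0.13, adjusted p = 2.23e-05, and 1.06, SE 0.13, adjusted p = 4.32e-06, with no overlap. FSTL1 (ENSSSCG00025026979), a secreted glycoprotein of the follistatin family, was at 69.8, 70.5, 60.8 and 81.7 CPM in fresh cells, 41.97, 61.0, 81.2 and 56.7 in spheroids of DMEM/F12 and 28.9, 35.5, 35.8 and 38.6 in those of incubation medium. It fell in incubation medium (log2 fold change -1.03, SE 0.17, adjusted p = 6.86e-05) and was not called in DMEM/F12 (-0.23, adjusted p = 0.214; -0.39, adjusted p = 0.0236, without DMEM/F12 replicate 3, the highest of its group). A further pair of genes matched the rule by symbol and are not ligands, receptors or SMADs. BMP1 (ENSSSCG00025028079) encodes a metalloproteinase that cuts procollagen and other matrix proteins and is not a ligand. It was at 3.83, 2.87, 3.18 and 2.16 CPM in fresh cells, 14.8, 16.8, 19.6 and 14.8 in spheroids of DMEM/F12 and 10.7, 13.5, 14.0 and 11.1 in those of incubation medium (log2 fold change 2.44, SE 0.18, adjusted p = 3.64e-08, and 2.02, SE 0.19, adjusted p = 2.75e-07). TGFB1I1 (ENSSSCG00025038637), or Hic-5, is an adaptor of focal adhesions. It was at 5.05, 4.30, 4.49 and 8.23 CPM in fresh cells, 21.9, 21.6, 21.4 and 24.6 in spheroids of DMEM/F12 and 8.35, 10.01, 10.1 and 13.2 in those of incubation medium (log2 fold change 2.02, SE 0.19, adjusted p = 3.82e-07, and 0.92, SE 0.20, adjusted p = 0.000901). Of the smooth muscle markers TAGLN stood at 193 to 324, 1045 to 1187 and 225 to 529 CPM in the same order of groups, while MYLK (mean 50.6, 15.9 and 14.8 CPM) and CNN1 (5.22, 0.867 and 0.847 CPM) were lower in each medium than in fresh cells. The part of such cells in the TGFB1I1 result was not tested.

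The 4 ID genes, which encode inhibitors of helix-loop-helix transcription factors, did not move as a group. ID3 (ENSSSCG00025022181) was at 26.6, 21.5, 22.6 and 24.7 CPM in fresh cells, with little spread. It reached 229, 257, 371 and 322 CPM in spheroids of DMEM/F12 and 90.9, 167, 213 and 144 in those of incubation medium, so that even the lowest spheroid library was over 3 times the highest fresh one. The level was 12.3-fold higher in DMEM/F12 (log2 fold change 3.62, SE 0.24, adjusted p = 9.94e-09) and 6.43-fold higher in incubation medium (log2 fold change 2.68, SE 0.23, adjusted p = 1.39e-07), the largest rise of the tested pathway genes in each. ID4 (ENSSSCG00025014498) fell, from 447, 419.7, 338 and 323 CPM in fresh cells to 148, 192, 159 and 169 in spheroids of DMEM/F12 and 104, 129, 123.3 and 108 in those of incubation medium. The 3 groups of ID4 did not overlap (log2 fold change against fresh cells -1.19, SE 0.12, adjusted p = 7.05e-07, and -1.71, SE 0.12, adjusted p = 2.23e-08). ID1 was at 44.9, 52.9, 39.1 and 76.4 CPM in fresh cells, 87.9, 92.9, 87.3 and 106 in spheroids of DMEM/F12 and 36.5, 79.3, 93.4 and 66.6 in those of incubation medium. It was called higher in DMEM/F12 (log2 fold change 0.81, adjusted p = 0.00788). In incubation medium ID1 was not called (0.37, adjusted p = 0.183), and it became so without fresh cell replicate 4, the highest of its group (0.60, adjusted p = 0.0408), or without incubation medium replicate 1, the lowest (0.60, adjusted p = 0.0108). ID2 was at 261, 203, 157 and 167 CPM in fresh cells, 221, 181, 207 and 209.9 in spheroids of DMEM/F12 and 115, 131, 139.7 and 156 in those of incubation medium. It was called lower in incubation medium (log2 fold change -0.54, adjusted p = 0.00369) and was not called in DMEM/F12 (0.06, adjusted p = 0.739). Incubation medium replicate 1 was the lowest library of its group for each of ID1 to ID4.

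**Figure D3:**
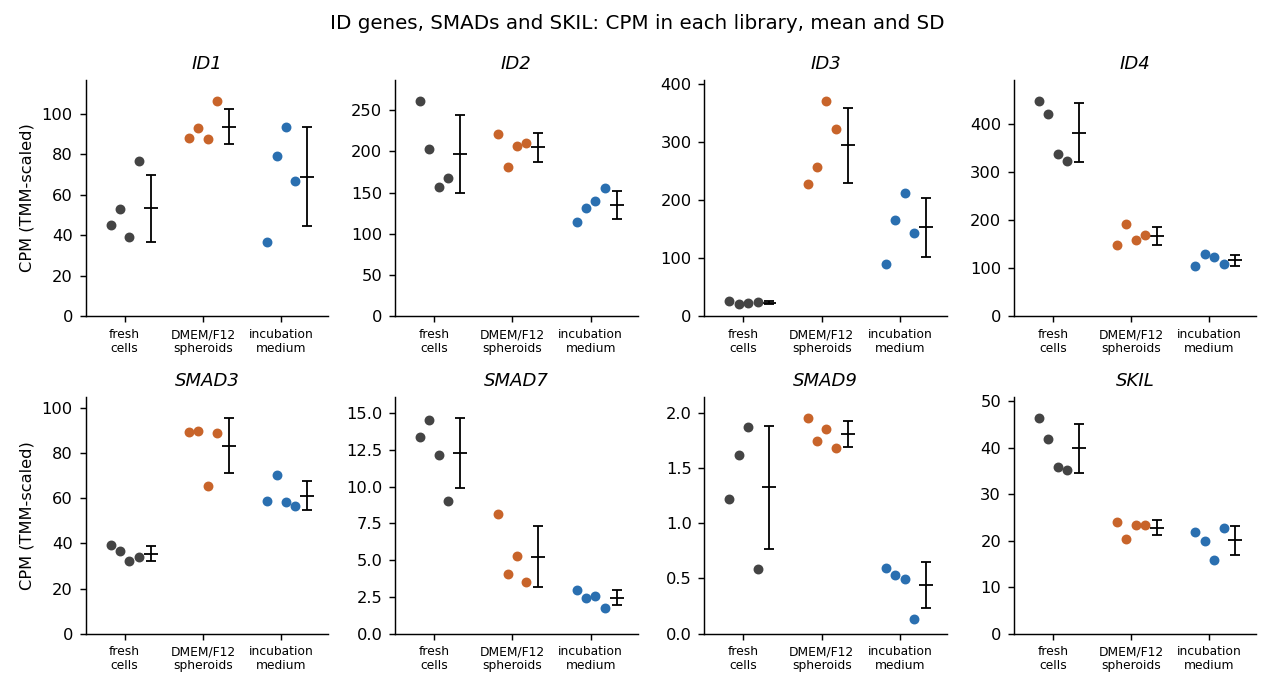
CPM (y axis, linear from 0) of the 4 ID genes, SMAD3, SMAD7, SMAD9 and SKIL in each of the 12 libraries (points, replicates 1 to 4 from left to right), with the mean and SD of 4 libraries beside them. ID3 rises from a mean of 23.9 CPM in fresh cells to 295 and 154 CPM in the spheroids while ID4 falls from 382 to 167 and 116 CPM.

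The spheroids of the 2 media were then compared directly. Here 19 of the 42 tested pathway genes were called (45.2%), 18 lower in incubation medium and 1 higher, while 25.0% of all genes were called, 12.3% lower and 12.7% higher. Higher calls made up 5.26% of the calls among the pathway genes and 50.9% among all genes. With library totals in place of TMM scaling these shares were 0% and 33.4%, so the split between directions in the whole table depends on the scaling. The groups did not overlap for 20 of 42 (47.6%), beside 26.9% of all genes, and the median log2 fold change was -0.39 for the tested pathway genes and 0.00 for all genes (-0.00347 before rounding). Most differences were small: 3 of 42 (7.14%) were called with a change of at least 2-fold, all lower in incubation medium, where 5.44% of all genes had such a change, 3.38% lower and 2.06% higher. These 3 were SMAD9 (log2 fold change -1.98, SE 0.38, adjusted p = 0.00185), TGFB1I1 (-1.11, SE 0.17, adjusted p = 0.00041) and SMAD7 (-1.10, SE 0.28, adjusted p = 0.0108), none of which overlapped between the media. Markers called lower in incubation medium in the same comparison were 4 of 7 stromal, 2 of 2 mesothelial, 1 of 5 smooth muscle (TAGLN), 1 of 4 leukocyte (CORO1A) and 1 of 6 endothelial (CDH5) ones. Of the epithelial markers CDH1 and CLDN4 were lower and KRT18 higher, the secretory marker LTF was higher, and 4 of 6 proliferation genes were higher. The part of these shifts in the result was not tested.

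**Figure D4:**
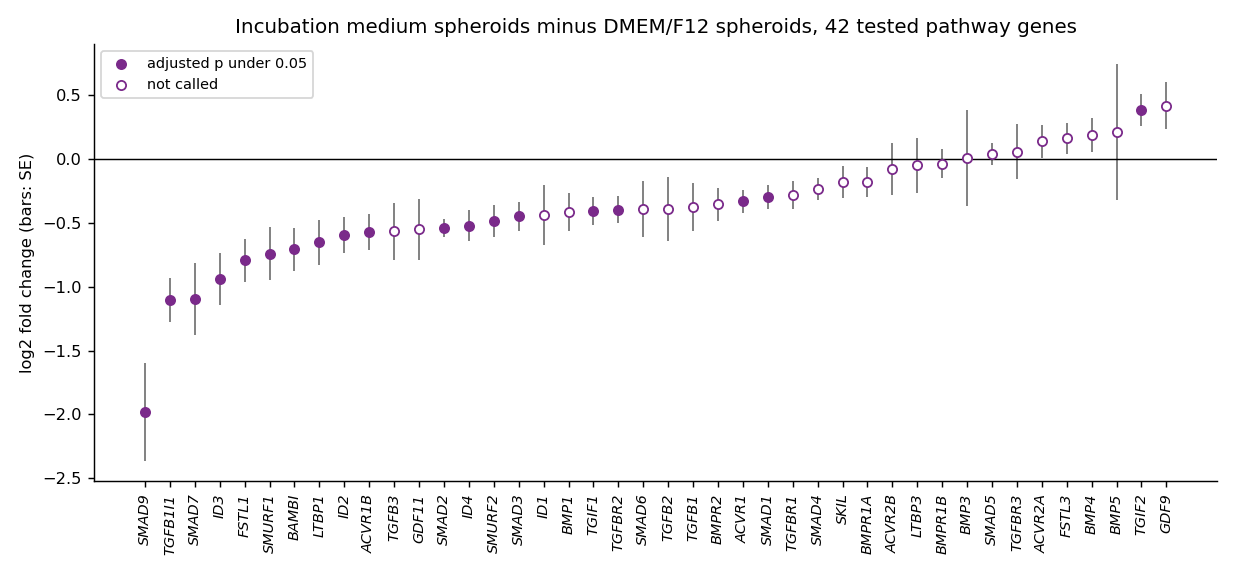
Log2 fold change between incubation medium and DMEM/F12 spheroids (y axis, log2 units; points are estimates from 4 libraries per group, bars are SE) for the 42 tested pathway genes in order of the difference. The 18 filled points under 0 and the single one above it (TGIF2) are the calls at an adjusted p under 0.05.

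The lower levels in incubation medium spanned targets, receptors and restraints of the pathway. ID3 was lower in all 4 incubation medium libraries than in any DMEM/F12 library (log2 fold change -0.94, SE 0.21, adjusted p = 0.00426), as were ID2 (-0.60, SE 0.14, adjusted p = 0.00749) and ID4 (-0.52, SE 0.12, adjusted p = 0.00581), while ID1 was not called (-0.44, adjusted p = 0.195). Among receptors TGFBR2 (-0.40, SE 0.11, adjusted p = 0.014), ACVR1B (-0.57, SE 0.14, adjusted p = 0.00799) and ACVR1 (-0.33, SE 0.09, adjusted p = 0.0167) were lower, the last with adjusted p = 0.0557 without incubation medium replicate 3. BAMBI was lower too (-0.71, SE 0.17, adjusted p = 0.00719). SMAD2 had the smallest adjusted p (-0.54, SE 0.07, adjusted p = 0.000133), with 81.4, 80.6, 86.8 and 78.9 CPM in DMEM/F12 and 60.2, 52.9, 56.0 and 56.0 in incubation medium, and SMAD3 was lower with overlapping libraries (-0.45, SE 0.11, adjusted p = 0.00922). SMAD1 was called (-0.30, adjusted p = 0.032), but the call was lost without the filter (0.0532) and without any single library of the comparison other than DMEM/F12 replicate 2 and incubation medium replicate 4 (log2 fold change -0.30 to -0.23, adjusted p 0.0611 to 0.0987). SMURF1 was called (-0.74, adjusted p = 0.0169), but not without DMEM/F12 replicate 3 (-0.50, adjusted p = 0.0511) or replicate 1 of incubation medium (-0.66, adjusted p = 0.0508). SMURF2 (-0.49, adjusted p = 0.00974) moved to -0.31 without DMEM/F12 replicate 3. FSTL1 (-0.80, SE 0.17, adjusted p = 0.00295), LTBP1 (-0.65, SE 0.17, adjusted p = 0.0136) and TGIF1 (-0.41, SE 0.11, adjusted p = 0.0133) complete the 18.

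TGIF2 was the single gene called higher in incubation medium (0.38, SE 0.13, adjusted p = 0.038). That call was lost with library totals (0.29, adjusted p = 0.125), without the filter (0.0626), and without any 1 of DMEM/F12 replicates 2 to 4 or incubation medium replicates 2 to 4 (0.32 to 0.38, adjusted p 0.0738 to 0.113). The ligands were not called between the media: TGFB1 had a log2 fold change of -0.38, adjusted p = 0.159, TGFB2 of -0.39, adjusted p = 0.286, and BMP4 of 0.18, adjusted p = 0.351. For TGFB1, incubation medium replicate 4 stood at 21.5 CPM against 10.7 to 12.8 in the others, and without it the gene was called lower (-0.64, adjusted p = 0.00406). TGFB3 was not called (-0.57, adjusted p = 0.0819) except with the replicate block (-0.56, adjusted p = 0.0431). The same block also brought calls, all lower in incubation medium, for TGFBR1 (-0.28, adjusted p = 0.0306), BMPR2 (-0.36, adjusted p = 0.0365), SMAD4 (-0.24, adjusted p = 0.0415) and BMP1 (-0.42, adjusted p = 0.0174). Without the block these 4 genes had adjusted p = 0.0741, 0.0621, 0.0625 and 0.0567. With library totals TGFBR1, BMPR2, SMAD4 and BMP1 were also called (adjusted p 0.0109 to 0.0203), BMP1 also with only the groups compared (0.0492), BMPR2 without replicate 4 of incubation medium (-0.42, adjusted p = 0.0477) and SMAD4 without replicate 1 of incubation medium (-0.31, adjusted p = 0.0208).

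A further 87 genes of the pathway that the symbol rule did not take were listed by role, and 50 of them were tested. Against fresh cells 23 were higher and 16 lower in DMEM/F12 spheroids, and 19 higher and 20 lower in incubation medium spheroids. Between the media 3 were higher in incubation medium and 13 lower. The share called was 78% in each medium against fresh cells (70.7 and 71.7% of all genes) and 32% between the media (25.0% of all genes). These shares of all genes also stand beside the counts of each list below. Of 15 tested genes known to respond to TGF-beta, 7 were higher and 5 lower in DMEM/F12 spheroids, 4 higher and 7 lower in incubation medium spheroids, and between the media 1 was higher and 4 lower in incubation medium. CDKN2B, an inhibitor of the cell cycle, was at 0.522, 0.717, 0.187 and 0.392 CPM in fresh cells, 17.2, 11.5, 15.1 and 12.4 in spheroids of DMEM/F12 and 18.7, 17.2, 16.9 and 19.9 in those of incubation medium (log2 fold change 4.88, SE 0.26, adjusted p = 1.71e-09, and 5.25, SE 0.26, adjusted p = 7.45e-10). JUNB, an early response transcription factor, was at 239, 342, 180.4 and 357 CPM in fresh cells, 16.3, 20.7, 15.2 and 12.2 in spheroids of DMEM/F12 and 8.83, 11.9, 9.85 and 11.96 in those of incubation medium (log2 fold change -4.11, SE 0.22, adjusted p = 1.76e-09, and -4.72, SE 0.23, adjusted p = 7.97e-10). No tested gene of that list rose more than CDKN2B or fell more than JUNB in either medium. Between the media neither was called (CDKN2B 0.37, adjusted p = 0.0854, and JUNB -0.60, adjusted p = 0.075). With the replicate block both were (0.38, adjusted p = 0.0409, and -0.60, adjusted p = 0.0206). CDKN2B was also called without DMEM/F12 replicate 1 (0.49, adjusted p = 0.0372), and JUNB with library totals, without the filter, with DESeq2 and with only the groups compared (adjusted p 0.0267 to 0.049).

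PMEPA1, a TGF-beta target that sequesters receptor SMADs, was lowest in incubation medium. It was at 61.8, 37.5, 63.8 and 74.9 CPM in fresh cells, 107, 50.3, 122.7 and 74.2 in spheroids of DMEM/F12 and 32.7, 15.1, 26.1 and 23.5 in those of incubation medium. The incubation medium libraries lay below all others (log2 fold change -1.86, SE 0.28, adjusted p = 0.000362 between the media and -1.28, adjusted p = 0.0011, against fresh cells). Replicate 2 was the lowest library of each group for PMEPA1. Against fresh cells DMEM/F12 was not called (0.57, adjusted p = 0.0746), but it was with the replicate block (0.54, adjusted p = 0.0018), without DMEM/F12 replicate 2 (0.78, adjusted p = 0.0127), with library totals (0.0485) and without the filter (0.0259). At low levels ADAM19 (log2 fold change -2.31, adjusted p = 0.0073) and COL4A1 (-1.66, adjusted p = 0.0422) were lower in incubation medium than in DMEM/F12. The COL4A1 call was lost with only the groups compared (0.0547) and without any single library of the comparison other than DMEM/F12 replicate 2 and incubation medium replicate 1 (-1.78 to -1.09, adjusted p 0.0535 to 0.173).

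**Figure D5:**
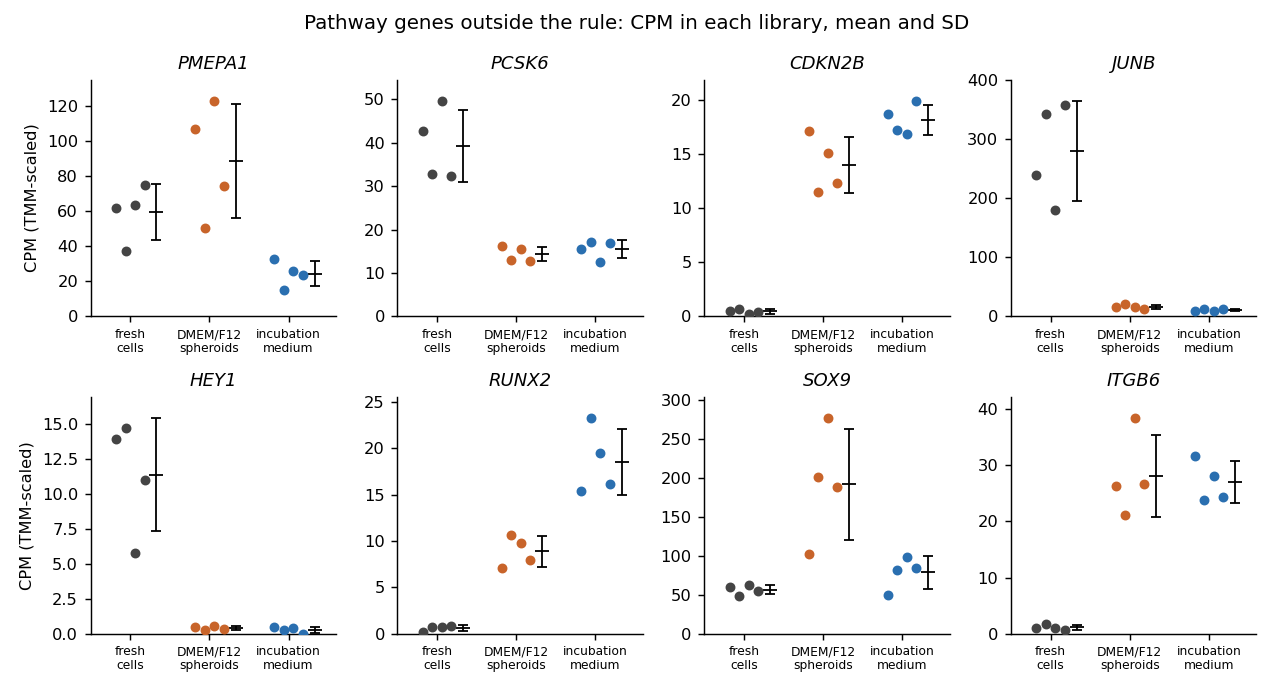
CPM (y axis, linear from 0) of 8 pathway genes that the symbol rule did not take, in each of the 12 libraries (points, replicates 1 to 4 from left to right), with the mean and SD of 4 libraries beside them. PMEPA1 is lowest in incubation medium spheroids, and CDKN2B and ITGB6 are near 0 in fresh cells.

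Of 4 tested genes known to respond to BMP, 2 were higher and 1 lower in DMEM/F12 spheroids and 1 higher and 1 lower in incubation medium spheroids. HEY1, a repressor also driven by Notch, was at 13.9, 14.7, 5.80 and 10.97 CPM in fresh cells and under 0.6 CPM in every spheroid library (log2 fold change -4.78, SE 0.42, adjusted p = 1.68e-07, and -5.23, SE 0.44, adjusted p = 1.18e-07). RUNX2, a transcription factor known from bone, went the other way, from 0.174 to 0.784 CPM in fresh cells to 7.06 to 10.7 in spheroids of DMEM/F12 and 15.4 to 23.2 in those of incubation medium (log2 fold change 3.85, SE 0.31, adjusted p = 7.58e-08, and 4.91, SE 0.29, adjusted p = 4.36e-09). RUNX2 was higher and SOX9 lower in incubation medium than in DMEM/F12 (1.06, adjusted p = 0.000988, and -1.29, adjusted p = 0.00172). SOX9, a transcription factor of many epithelial progenitors, was at 60.0, 48.6, 61.7 and 54.7 CPM in fresh cells, 102, 201, 276 and 188 in spheroids of DMEM/F12 and 49.9, 81.0, 98.8 and 83.8 in those of incubation medium. It rose in DMEM/F12 (log2 fold change 1.77, adjusted p = 2.27e-05) and was not called in incubation medium (0.48, adjusted p = 0.104). It was called there with the replicate block (0.42, adjusted p = 0.0382), without replicate 1 of incubation medium (0.66, adjusted p = 0.0253), without the filter (0.0447) and with only the groups compared (0.0315).

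Genes that release or process ligands changed as well. ITGB6, the subunit of an epithelial integrin that activates latent TGF-beta, was at 1.04, 1.79, 0.935 and 0.588 CPM in fresh cells, 26.4, 21.1, 38.4 and 26.7 in spheroids of DMEM/F12 and 31.7, 23.8, 28.2 and 24.3 in those of incubation medium (log2 fold change 4.65, SE 0.28, adjusted p = 3.99e-09, and 4.60, SE 0.28, adjusted p = 4.5e-09). Its partner ITGAV was lower in incubation medium than in DMEM/F12 (log2 fold change -0.74, adjusted p = 3.23e-05). Against fresh cells ITGAV was higher in DMEM/F12 (0.90, adjusted p = 3.39e-07) and was not called in incubation medium (0.16, adjusted p = 0.104). Of the 4 tested genes of latency and activation, 2 were higher and 1 lower in DMEM/F12 spheroids and 1 higher and 2 lower in incubation medium spheroids, EMILIN1 being lower in each (log2 fold change -0.91 and -1.08). Among 4 tested genes of other ligands and ligand processing, 2 were higher and 1 lower in each medium. The proprotein convertase PCSK6 fell (log2 fold change -1.45, adjusted p = 1.11e-06, and -1.35, adjusted p = 2.25e-06) and AMH, anti-Müllerian hormone, rose (1.17, adjusted p = 2.32e-06, and 1.25, adjusted p = 1.14e-06). FURIN, which cuts the precursors of TGF-beta, was higher than in fresh cells in each medium (1.11, adjusted p = 1.8e-07, and 0.67, adjusted p = 2.86e-05). It was lower in incubation medium than in DMEM/F12 (-0.45, adjusted p = 0.00343). All 3 tested co-receptors fell against fresh cells in each medium, RGMB most (log2 fold change -1.62, adjusted p = 3.11e-09, and -1.40, adjusted p = 1e-08) and then NEO1 in DMEM/F12 (-1.06, adjusted p = 9.69e-08) and in incubation medium (-1.34, adjusted p = 1.08e-08). NEO1 was also called between the media (-0.29, adjusted p = 0.0306), a call lost without any single library of the comparison other than DMEM/F12 replicate 2 and incubation medium replicate 1 (adjusted p 0.0554 to 0.0957), without the filter (0.0577) and with only the groups compared (0.0607).

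The other secreted antagonists tested, SOSTDC1 and TWSG1, were both lower against fresh cells. SOSTDC1, a BMP antagonist, was at 5.22, 2.33, 1.87 and 2.55 CPM in fresh cells and 0 in all 8 spheroid libraries, at least 8.14-fold lower in DMEM/F12 (adjusted p = 7.67e-05) and at least 7.82-fold lower in incubation medium (adjusted p = 8.11e-05), against a floor of 3 counts per library. TWSG1, which modulates BMP binding to chordin, had log2 fold changes of -0.63, adjusted p = 0.000267, and -1.004, adjusted p = 4.04e-06. Its call between the media (-0.37, adjusted p = 0.0374) was lost with only the groups compared (0.0708) and without DMEM/F12 replicate 3 or 4 or incubation medium replicate 1, 2 or 4 (-0.38 to -0.25, adjusted p 0.0631 to 0.116). Of 18 tested cytoplasmic and nuclear regulators, 10 were higher and 3 lower in DMEM/F12 spheroids and 11 higher and 4 lower in incubation medium spheroids. Among all genes tested 70.7% were called in DMEM/F12, 35.1% higher and 35.7% lower. In incubation medium 71.7% of all genes were called, 35.8% in each direction. RBL1, or p107, a pocket protein that works with SMAD3, rose (log2 fold change 1.73, adjusted p = 6.48e-07, and 1.88, adjusted p = 2.71e-07), as did FKBP1A, which keeps type I receptors silent (1.71, adjusted p = 4.94e-09, and 1.85, adjusted p = 2.52e-09). The endocytic adaptor DAB2 was lower than in fresh cells in each medium (-0.93, adjusted p = 0.000403, and -1.51, adjusted p = 6.14e-06). DAB2 was also lower in incubation medium than in DMEM/F12 (-0.58, adjusted p = 0.0389). That call was lost with only the groups compared (0.0781) and without DMEM/F12 replicate 1, 2 or 4 or incubation medium replicate 3 or 4 (-0.58 to -0.45, adjusted p 0.0733 to 0.123). For DAB2 58.3% and for FKBP1A 50% of libraries held a fraction of a count.

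The 18 genes of the symbol rule that were not tested had 0 to 81 counts over all 12 libraries. No count was found in any library for BMP10, GDF2, GDF6, GDF10 and ACVR1C, and a count of 0 allows up to 0.349 to 0.595 CPM before TMM scaling, depending on the library. Over all 12 libraries INHBC had 1 count, BMP15 2, GDF5 3, GREM1 3, INHA 5, BMP2 10, CHRDL1 21, NOG 41, INHBB 50, TGFBR3L 71.5, BMP7 81 and ACVRL1 81. NOG, or noggin, the classic antagonist of BMP2 and BMP4, had 2, 2, 0 and 2 counts in fresh cell replicates 1 to 4, 8, 6, 8 and 8 in spheroids of DMEM/F12 and 0, 2, 2 and 1 in those of incubation medium. It was thus above the floor of 3 counts in DMEM/F12 spheroids alone, at a mean at least 1.67-fold higher than fresh cells and at least 2.41-fold higher than incubation medium spheroids. INHBB, the beta B subunit of activin, had 3, 4, 3 and 4 counts in fresh cells, 7, 7, 9 and 7 in spheroids of DMEM/F12 and 1, 1, 4 and 0 in those of incubation medium. CHRDL1, a chordin-like antagonist, was above the floor in DMEM/F12 replicates 3 and 4 only, at 2, 0, 7 and 6 counts in replicates 1 to 4. BMP7 had 12, 7, 8 and 13 counts in fresh cells, 1, 8, 4 and 5 in spheroids of DMEM/F12 and 6, 5, 7 and 5 in those of incubation medium. ACVRL1, a receptor of endothelial cells, had 5, 5, 7 and 31 counts in fresh cells, of which replicate 4 holds most, 3, 9, 1 and 7 in spheroids of DMEM/F12 and 1, 6, 2 and 4 in those of incubation medium. No row carried the symbol of activin subunit INHBA, follistatin, chordin, TGFBI or GDF15, so these genes were not analysed here. Of the 30461 gene rows 13259 carried a symbol, and the rows without one were not searched for them.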

How the data were processed

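RNA captured by oligo-dT from 12 libraries had been sequenced. The submitters' processing notes name fastp 0.24.0, STAR 2.7.11, SAMtools 1.22.1, featureCounts and Subread 2.1.1. The genome build, annotation, strand setting and use of molecular identifiers are not given in the sources used here. The authors deposited 1 table of expected counts per gene, some of them not whole, and the same values as CPM, which equalled count over library total to within 4.98e-06. The counts were rounded to whole numbers for every test, and the 92 spike-in rows (at most 0.000614% of a library) were left out.

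Genes were kept by edgeR's filterByExpr, scaled by TMM (factors 0.953 to 1.07) and fitted over the 12 libraries in 1 model of group means, using edgeR 4.0.16 (R 4.3.3) and its quasi-likelihood F-test with Benjamini-Hochberg adjustment over 14070 genes. SE is the absolute log2 fold change over the square root of F. The script was tested on simulated data. Some single genes counted in the totals are not reported here. The members and lists were chosen with earlier results of these data known. Members with a mean of at least 5 CPM and a called log2 change of at least 1 are described library by library, with others given for their role, and in each pathway list at most 2 called genes with the largest absolute change are named per comparison. Marker lists cover epithelium, secretory, multiciliated, stromal, smooth muscle, leukocyte, endothelial, mesothelial and proliferating cells.

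Libraries of 1 group were further apart than sampling alone gives, with a chi-square over its degrees of freedom of 5.44 to 15.5. Replicate numbers come from the library titles. Same-numbered libraries of different groups deviated together (correlations 0.196 to 0.516 over genes), while those with different numbers had correlations of -0.318 to 0.0233. A fit with the number as a block was therefore run as an alternative, and the main counts come from the fit without it. Alternatives were library totals or RLE scaling, other filters, counts cut to whole numbers, DESeq2 1.42.0, only the groups compared, and leaving out each library.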

Additional observations from a re-analysis of the deposited data

Results flagged for a closer look

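In 126 sets of 4 libraries (42 tested genes in 3 groups), 10 had a library set apart from the other 3 by more than Dixon's 95% critical value for the gap over the range, and chance gives about 1 in 20. Incubation medium replicate 4 was high for GDF9 (10.3 CPM, others 7.47 to 7.87) and LTBP1 (70.3, others 41.0 to 43.9), replicate 2 high for SMAD3 (70.6, others 56.5 to 58.7), and replicate 3 low for ACVR2B (5.05, others 6.81 to 6.99). DMEM/F12 replicate 3 was low for SMAD3 (65.4, others 88.97 to 90.02) and TGFB2 (11.5, others 15.9 to 16.7) and high for SMURF2 (81.6, others 52.5 to 55.7). DMEM/F12 replicate 1 was low for TGFBR3 (5.72, others 8.165 to 8.596), DMEM/F12 replicate 4 high for TGFB1I1 (24.6, others 21.4 to 21.9), and fresh cell replicate 4 high for LTBP3 (129.7, others 98.2 to 102.1).

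The change against fresh cells differed between the media for 19 of the 42 genes. Both changes share the fresh cells, so this difference is the direct comparison of the media and adds no test to it. On the log2 scale, incubation medium minus DMEM/F12, it was -0.60 for ID2, -0.94 for ID3 and -0.52 for ID4. Among receptors it was -0.40 for TGFBR2, -0.33 for ACVR1, -0.57 for ACVR1B and -0.71 for BAMBI. Among SMADs it was -0.30 for SMAD1, -0.54 for SMAD2, -0.45 for SMAD3, -1.10 for SMAD7 and -1.98 for SMAD9. It was -0.74 for SMURF1, -0.49 for SMURF2, -0.41 for TGIF1, 0.38 for TGIF2, -0.65 for LTBP1, -0.80 for FSTL1 and -1.11 for TGFB1I1. The estimates against fresh cells had opposite signs in the media for ID2, LTBP1, TGIF1, SMAD2, SMAD9 and SMURF2. None of these genes was called against fresh cells in both media, and LTBP1, TGIF1 and SMURF2 were called in neither.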

How the results depend on the processing

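No called change reversed under any alternative run. Of 189 estimates 14 changed sign under at least 1 alternative, and none of these was called in either fit. Over single genes, 2881 values kept their side of the threshold, 56 came to pass it and 72 no longer passed it. Leaving out 1 library gave 14 to 17 genes higher and 16 to 19 lower in DMEM/F12 spheroids, 11 to 13 and 22 to 24 in incubation medium spheroids, and 0 to 1 and 16 to 20 between the media. The count of 1 gene higher in incubation medium than in DMEM/F12 (TGIF2) became 0 with library totals and without the filter on low counts. It was also 0 without any 1 of replicates 2, 3 and 4 of either medium. With the replicate block the counts were 17 and 18, 13 and 23, and 1 and 23 in the same order. The share of all genes called rose with the block as well, to 74.4%, 75.3% and, between the media, 32.8% (16.2% lower). The calls it changed stand beside their genes; it changed no other call. Precision is limited by 4 libraries a group and, for genes of a few CPM, by counting error. The media and the marker shifts cannot be separated here. Replicate numbers recur in every group, but the sources behind them are not stated.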
